A study of Mustela putorius furo with 8 samples.

Results

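Cystic fibrosis (CF) ferret pancreatic ductal epithelium (PDE) was compared between day 5 and day 7 of polarization, using the 1 CF library of each day. The members were the retained cells that the authors' cell table assigned to CF day 5 or CF day 7. These were 2750 and 1607 cells, or 4357 of the 32945 cells in the 8 libraries of the series. Duct epithelial cells were isolated from the pancreata of newborn ferrets that were either CFTR knockout on both alleles (CFTR KO/KO, called CF) or wild type (WT), expanded through repeated passages and seeded on coated membrane supports. They were profiled by droplet single-cell RNA-seq at days 2, 5, 7 and 9 after the move to an air-liquid interface, with no drug or other agent in any group. Each genotype and day is 1 library, cells of several animals were pooled without a label for the animal, and the cells had been grown in culture as duct epithelium. With 1 library on each side no p-value was computed, and the intervals given below are 95% intervals that cover counting error only.

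Ductal cells line the tree that carries digestive enzymes and bicarbonate out of the pancreas, and are held together by E-cadherin junctions, claudins and simple keratins. In an epithelial-mesenchymal transition such cells lose junction genes and take up vimentin, fibronectin, contractile proteins and fibrillar collagens, classically under the transcription factors SNAI1, SNAI2, ZEB1, ZEB2, TWIST1 and TWIST2. The signals that induce matrix and contractile genes in many tissues include TGF-beta ligands, the mechanically regulated YAP and TEAD factors, and SRF with its actin-sensing cofactors.

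The CF day 5 library held 71472170 unique molecular identifiers (UMIs, counted transcript molecules) and the CF day 7 library 34735952. The median was 22793 and 23427 UMIs per cell. At day 7, 411 cells (25.6%) had under 3000 UMIs, against 45 (1.64%) at day 5, and these held 1.44% and 0.137% of the UMIs. Ribosomal RNA genes took 0.300% of UMIs at day 7 and 0.110% at day 5, and 3.02% in the shallow day 7 cells. The libraries of both days shared 1 cell barcode. CFTR could not serve as a check of the labels: it had 621 and 386 UMIs in the libraries labelled CF, and a 3' count can lie outside the disrupted part of a gene. The duct label matched its markers, since KRT7, KRT19, KRT8, EPCAM and CDH1 were all counted at 148 CPM or more (UMIs per 1000000 of the library's total) on both days.

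Between day 5 and day 7, FN1 rose 67.5-fold, SPP1 25.9-fold and TAGLN 18.0-fold. Of the genes that reached 10 CPM on either day, 6 of 9 mesenchymal and 7 of 14 contractile ones rose, against 1.95% of all. Among these, FN1 and ACTA2 reached 10 CPM at day 7 alone. The lists were chosen with earlier results of these data known, so the counts are a description and no test. Leaving out the authors' cluster 11, 3 of those 7 contractile genes still rose. The 20 epithelial junction genes and 4 simple keratins that were read stayed within 2-fold of their day 5 level, as did most of all genes. Counts were summed per library, scaled to CPM, and compared as log2(CPM + 1) at day 7 minus day 5. A gene that reached 10 CPM in at least 1 of both libraries was read, and it is said to have risen or fallen where this difference was at least 1 in size, a 2-fold change. Of 7951 such genes, 155 rose (1.95%) and 22 fell (0.277%). The median over the 7951 genes was 0.10, and 67.0% of them lay above 0. Genes that rose made up 87.6% of those that rose or fell. With libraries scaled by edgeR's TMM factors, which put the median over all genes at -0.07, 108 rose and 35 fell (75.5%), and with DESeq2's size factors, median -0.04, 113 rose and 30 fell (79.0%). Of the 155, 68 reached 10 CPM at day 7 alone, and so were read only through the day on which they were higher. In all, 383 genes were read through day 7 alone. In the cells with at least 3000 UMIs, 151 of 7941 genes rose (1.9%) and 22 fell (0.277%), and 150 of the 155 and all 22 were the same genes. A summed level cannot separate more cells of a kind from more RNA per cell. Levels per cell follow further below.

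**Figure D1:**
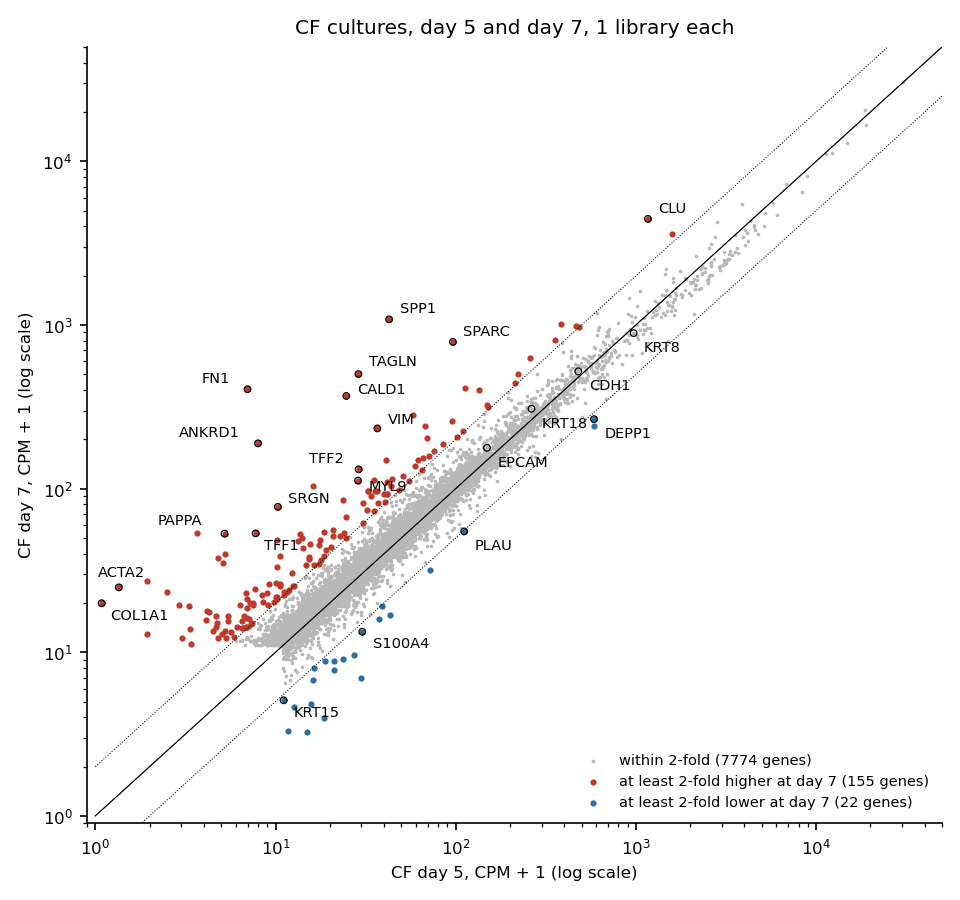
Level of each of 7951 genes as CPM + 1 at CF day 5 (horizontal axis, log scale) and CF day 7 (vertical axis, log scale), 1 point a gene, with a solid line at equal levels and dotted lines at 2-fold. The 155 red genes lie above the upper dotted line and the 22 blue ones below the lower, with FN1 (5.99 and 404 CPM) among the points farthest from the solid line.

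FN1, which encodes fibronectin, an adhesive protein of provisional and stromal matrix, showed the largest difference of the 68 genes that rose with at least 50 CPM in 1 of both libraries, in all cells and in the deeper ones. The 15 of these with the largest rise, and the 4 that fell under the same rule, are called ranked genes. It had 5.99 CPM (95% interval 5.43 to 6.58) at day 5 and 404 CPM (397 to 411) at day 7, 67.5-fold (95% interval 61.3 to 74.5). Across days 2, 5, 7 and 9 the CF libraries read 3.23, 5.99, 404 and 431 CPM, with the step between the second and the third of these values. SPP1, the secreted matrix protein osteopontin, rose from 41.7 to 1082 CPM, 25.9-fold (95% interval 25.0 to 26.9), and read 2.98, 41.7, 1082 and 1939.7 CPM over the 4 days. ANKRD1, a nuclear ankyrin-repeat protein and a common target of YAP and TEAD, rose from 7.00 to 188 CPM, 26.9-fold (95% interval 24.6 to 29.5). TAGLN (transgelin), an actin-binding protein of smooth muscle and myofibroblasts, rose from 27.8 to 500.4 CPM, 18.0-fold (95% interval 17.2 to 18.8). CALD1 (caldesmon), which regulates actomyosin contraction, rose from 23.7 to 367 CPM, 15.5-fold (95% interval 14.7 to 16.3). At day 9 the CF library read 165 CPM for ANKRD1, 591 for TAGLN and 437 for CALD1.

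SPARC, a collagen-binding matrix glycoprotein, was already present at day 5 and rose from 95.5 to 787 CPM, 8.25-fold (95% interval 8.03 to 8.47). VIM, the mesenchymal intermediate filament vimentin, rose from 35.7 to 232 CPM, 6.50-fold (95% interval 6.22 to 6.80). PAPPA, a metalloproteinase that cleaves IGF-binding proteins, rose from 4.21 to 52.1 CPM (12.4-fold), and MYL9, a myosin light chain of contractile cells, from 27.7 to 111 CPM (4.01-fold). SRGN (serglycin), a proteoglycan of secretory granules, rose from 9.30 to 76.4 CPM (8.21-fold). CLU, the secreted chaperone clusterin, was among the most abundant transcripts on both days and rose from 1165 to 4450.3 CPM (3.82-fold). Of the other ranked genes, TFF1 and TFF2 are described with the secretory genes. LOC123389978 (2.64 to 52.9 CPM) and LOC101679442 (57.0 to 279 CPM) are annotated as protein coding without a symbol. LOC123388620 (15.1 to 103 CPM) is a ribosomal RNA gene, as are 15 of the 155 genes that rose; near-identical copies of such genes share reads, so their values are uncertain. In the ferret assembly ASM1176430v1.1, FN1 spans positions 19735613 to 19801971, SPP1 3320939 to 3329027, TAGLN 22027174 to 22032649 and SPARC 24140955 to 24164243 of their sequences, all of them protein coding. The reference table used here names no chromosome for them, and 3' counts of whole genes do not tell exons apart.

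**Figure D2:**
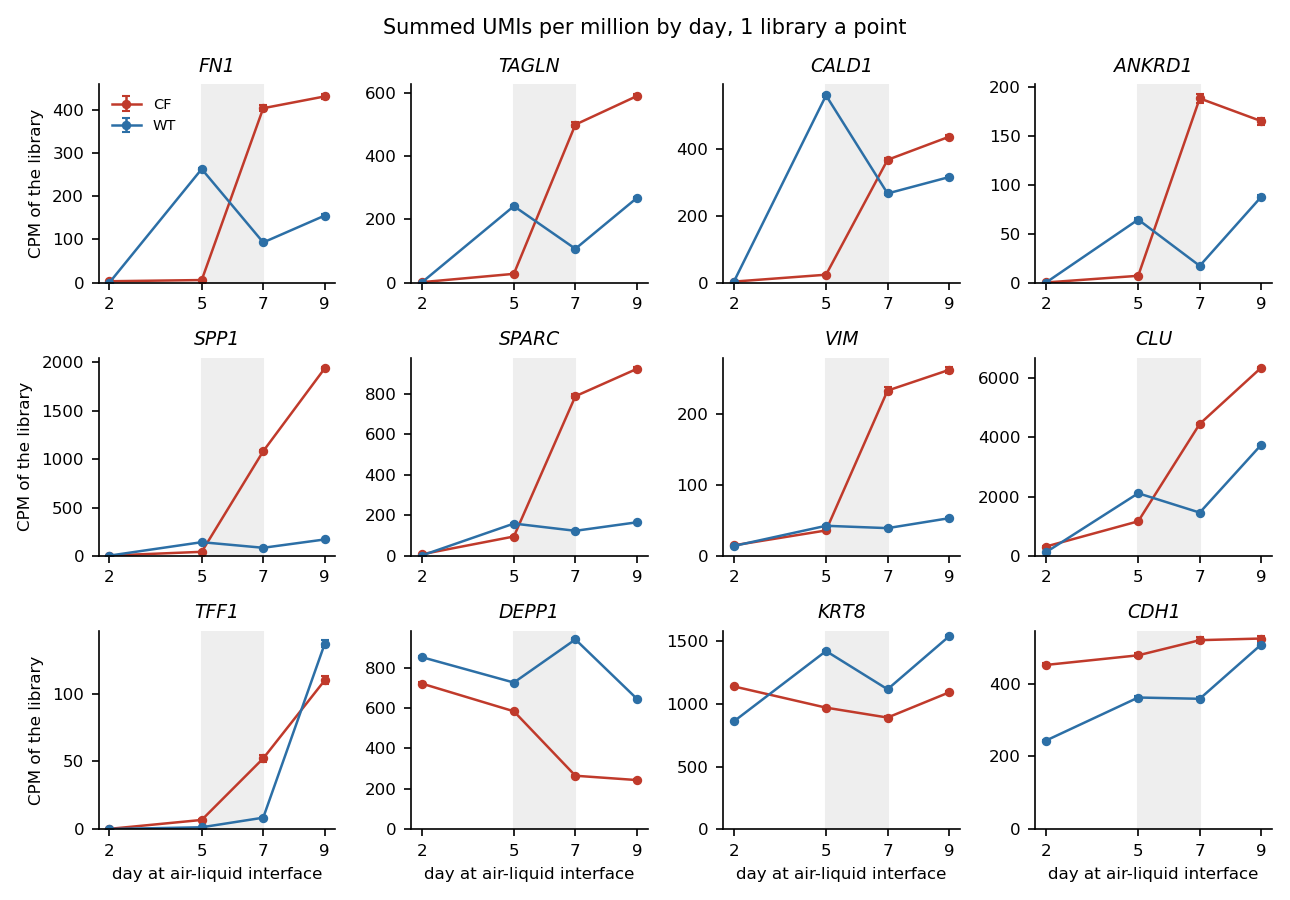
Level of 12 genes in CPM (vertical axis, linear from 0 and with a scale of its own in each panel) at days 2, 5, 7 and 9 (horizontal axis) in the CF (red) and WT (blue) libraries, 1 library a point, with error bars of 95% counting error and the day 5 to day 7 interval shaded. FN1 in CF goes from 5.99 to 404 CPM across the shaded interval and in WT from 263 to 93.1 CPM, while KRT8 in CF reads 971 and 892 CPM.

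Among 15 mesenchymal genes, 6 of the 9 that were read rose (1.95% of all genes did) and 1 fell. VIM, FN1, SPARC and SPP1 are given above. FN1 reached 10 CPM at day 7 alone, and SPP1 is also a member of the ductal marker list. TGFBI, a TGF-beta-induced matrix protein, rose from 16.8 to 35.7 CPM and PDPN (podoplanin), a membrane mucin of motile and stromal cells, from 35.4 to 96.0 CPM. TGFBI was within 2-fold with TMM or DESeq2 scaling, with cells thinned to 3000 UMIs and with a pseudocount of 5 CPM. S100A4, a calcium-binding protein linked to motility, fell from 29.3 to 12.4 CPM, which a pseudocount of 5 CPM brought within 2-fold. The median log2 difference over the 8 members with at least 10 CPM at day 5 was 1.23, against 0.08 over the 7568 genes of that kind, and over all 14 members with a count it was 1.87, against 0.06 over 18526 genes. The members that were too low to be read also had more UMIs at day 7: THY1, a surface marker of fibroblasts, had 0 and 90 UMIs, and LGALS1 (galectin 1) had 5 and 170. FBN1 (fibrillin), of elastic microfibrils, had a log2 difference of -0.07 and the hyaluronan receptor CD44 of -0.13. FAP had no row in the count matrix.

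Of 18 contractile genes, 14 were read and 7 rose (1.95% of all genes did), with none lower by 2-fold. Without the authors' cluster 11, described below, 3 of these rose (TAGLN, CALD1 and MYL9) and ACTA2, PALLD, FLNA and TPM1 had log2 differences of 0.20, 0.80, 0.90 and 0.82, and the median over the 13 still read, ACTA2 no longer among them, was 0.51. In all cells the 7 were TAGLN, CALD1, MYL9, ACTA2, smooth muscle actin (0.350 to 23.9 CPM), PALLD (palladin), a scaffold of stress fibres (34.1 to 111 CPM), FLNA (filamin A), an actin cross-linker (43.4 to 113 CPM), and TPM1, a tropomyosin (214 to 441 CPM). ACTA2 passed through day 7 alone. TPM1 was within 2-fold with TMM or DESeq2 scaling, with thinned cells, with each cell weighted alike, with the classes at equal shares and with doublets kept. The median was 0.85 over the 14 and 0.65 over the 13 that reached 10 CPM at day 5. Collagens were at or near 0 UMIs at day 5 for most chains. COL1A1, the main chain of fibrillar collagen I, had 6 UMIs at day 5 and 658 at day 7 (0.0839 to 18.9 CPM), and COL1A2, its partner chain, had 2 and 232. Of 18 collagen genes, 6 were read and 5 rose (1.95% of all genes did), but 4 of the 6 passed through day 7 alone. Of all genes that passed so, 68 of 383 rose, so the 1.95% is no measure for these 4. They were COL1A1, COL4A1 of basement membrane (0.923 to 26.4 CPM), COL12A1 (4.13 to 34.3 CPM) and COL5A2 (9.21 to 47.4 CPM). Of the 2 chains with at least 10 CPM at day 5, 1 rose, COL18A1, the precursor of endostatin (134 to 401 CPM). The other, COL17A1, a hemidesmosome collagen of epithelia, read 203 and 348 CPM. The median over the 17 chains with a count was 1.57, and over the 2 chains with at least 10 CPM at day 5 it was 1.17.

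The genes that modify and anchor matrix are read against the 1.95% of all genes that rose and the 0.277% that fell. Among 16 collagen processing genes, 8 were read and 3 rose: the collagen chaperone SERPINH1 (42.9 to 103 CPM) and the lysyl hydroxylases PLOD1 (8.76 to 19.2 CPM) and PLOD2 (54.0 to 111 CPM). Among 10 laminin genes, 7 were read and 2 rose, among them LAMA3, a chain of the epithelial laminin of hemidesmosomes (68.3 to 203 CPM). Of 13 integrin genes, 7 were read and 2 rose: ITGB1, the common beta chain of many matrix receptors (465 to 979 CPM), and ITGB6, a beta chain of the receptor that activates latent TGF-beta (151 to 316 CPM). Both integrins were within 2-fold with TMM or DESeq2 scaling, with each cell weighted alike and without cluster 11. Without cluster 11 none of the 3 collagen processing genes rose, with SERPINH1 at a log2 difference of 0.83. PLOD1 passed through day 7 alone. PLOD1 and PLOD2 were within 2-fold with TMM or DESeq2 scaling, without cluster 11, with doublets kept, with the classes at equal shares and with a pseudocount of 5 CPM, and PLOD1 also with each cell weighted alike. Medians of these lists were 0.88, 0.77 and 0.72. Of 18 matrix proteases and inhibitors, 10 were read, of which 1 rose and 1 fell. PLAU, the urokinase-type activator of plasminogen, fell from 110.4 to 53.8 CPM, 0.487 times the day 5 level (95% interval 0.463 to 0.512). The median of that list was 0.01.

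Among 14 TGF-beta ligands and receptors, 8 were read and 2 rose, where 1.95% of all genes rose and 0.277% fell. INHBA, which encodes the activin subunit beta A, rose from 0.937 to 12.0 CPM, passing through day 7 alone, and LTBP4, a carrier of latent TGF-beta, from 10.2 to 21.5 CPM, which was within 2-fold with TMM or DESeq2 scaling, without cluster 11, with doublets kept, with thinned cells, with the classes at equal shares and with a pseudocount of 5 CPM. TGFB1 itself read 56.1 and 91.8 CPM, a log2 difference of 0.70. Of 16 TGF-beta targets, 13 were read, of which 2 rose, TGFBI among them, with a median of 0.57. CCN2, a matricellular growth factor that is also in the YAP list, read 919 and 1464 CPM. PMEPA1, a negative regulator of TGF-beta signalling, read 388 and 776 CPM, just under the 2-fold limit. Of 16 YAP and TEAD targets, 13 were read, 2 of them through day 7 alone, ANKRD1 being 1 of these. ANKRD1 and F3, the tissue factor that starts coagulation (353 to 808 CPM), rose. Without cluster 11 their log2 differences were 2.89 and 0.83. FOSL1, an AP-1 subunit, fell from 15.4 to 6.97 CPM. FOSL1 was within 2-fold with thinned cells, with the classes at equal shares and with a pseudocount of 5 CPM. Of 16 SRF targets, 14 were read and 6 rose, namely ACTA2, TAGLN, MYL9, TPM1 and FLNA of the contractile list and FHL2, a LIM-domain cofactor (31.0 to 73.4 CPM). Without cluster 11, only TAGLN and MYL9 of these 6 rose. The lists of TGF-beta, YAP and SRF targets share members, and each had a median between 0.57 and 0.58, against 0.10 over all genes. For the TGF-beta and YAP lists this median is the value of 1 shared gene, CCN1 (0.57). CCN1 also lies at the middle of the SRF list, beside ACTG1 (0.58). The likeness of these medians thus comes from a shared member.

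Of 16 secreted regulators, 10 were read and 6 rose (1.95% of all genes did). Of these 6, FSTL1, CTHRC1 and IGFBP2 passed through day 7 alone. Of all genes that passed so, 68 of 383 rose, so the 1.95% is no measure for them. Among the 7 members with at least 10 CPM at day 5, those that rose were GAS6, SFRP1 and FSTL3. FSTL1, a follistatin-like glycoprotein, rose from 1.48 to 22.3 CPM. GAS6, the ligand of TAM receptor kinases, rose from 40.8 to 91.3 CPM, the WNT antagonist SFRP1 from 108 to 222 CPM, CTHRC1, a secreted collagen-repeat protein, from 3.51 to 12.5 CPM, FSTL3, an activin antagonist, from 21.9 to 50.3 CPM, and IGFBP2, a carrier of insulin-like growth factors, from 9.09 to 20.7 CPM. The median of the 10 was 1.07, and over the 7 with at least 10 CPM at day 5 it was 0.86. SFRP1 and IGFBP2 were within 2-fold with TMM or DESeq2 scaling, with the classes at equal shares and with each cell weighted alike, as were SFRP1 with doublets kept or without cluster 11 and IGFBP2 with a pseudocount of 5 CPM. GAS6 was within 2-fold with TMM scaling.

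Of 10 transition factors, 3 were read and none of these rose or fell. Over all read genes 1.95% rose and 0.277% fell, so 0 of 3 is near those shares. SNAI2 (Slug), a repressor of E-cadherin, read 42.1 CPM (40.6 to 43.6) and 66.1 CPM (63.4 to 68.8), a log2 difference of 0.64. TWIST1 read 33.6 and 31.6 CPM and PRRX2, a homeobox factor of mesenchyme, 26.5 and 30.2 CPM. The other members did not reach 10 CPM. SNAI1 had 42 and 21 UMIs, ZEB1 3 and 8, ZEB2 1 and 10, TWIST2 5 and 0, and SNAI3 had no UMI. Per UMI of the library the ratio was 20.6 for ZEB2 (95% interval 2.93 to 893), 5.49 for ZEB1 (1.32 to 32.1) and 1.03 for SNAI1 (0.579 to 1.78), all from a few UMIs.

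None of 20 read epithelial junction genes (of 25, of which JUP and DSP had no row in the matrix) rose or fell. Over all read genes 1.95% rose and 0.277% fell, so staying within 2-fold was not particular to the lists of this paragraph. The junction genes had a median of 0.14, which became -0.017 with edgeR's TMM scaling. E-cadherin (CDH1) read 478 and 519.8 CPM, and the adhesion molecule EPCAM 148 and 177 CPM. The tight junction claudins had lower values at day 7, with CLDN1 at 514 and 406 CPM, CLDN4 at 353 and 252 CPM and CLDN7 at 152 and 121 CPM, none by 2-fold. CTNNB1 (beta-catenin), which couples E-cadherin to actin, read 171 and 260.5 CPM. Of 17 epithelial identity factors, 16 were read and none rose or fell, with a median of 0.02. Among them were ELF3, an epithelial ETS factor (411 and 333 CPM), OVOL1, a repressor of the mesenchymal state (log2 difference -0.82), and ESRP1, an epithelial splicing regulator (81.8 and 81.6 CPM). The simple keratins of duct cells were also within 2-fold: KRT7 read 2752 and 3471 CPM, KRT8 971 and 892, KRT18 263 and 307, and KRT19 4539 and 4093. KRT15, a keratin of basal and progenitor cells, fell from 10.1 to 4.09 CPM and KRT4, of stratified mucosa, from 20.2 to 7.80 CPM, while the basal keratin KRT5 read 548 and 647 CPM. KRT15 and KRT4 were within 2-fold with each cell weighted alike or a pseudocount of 5 CPM, and KRT4 also with doublets kept.

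**Figure D3:**
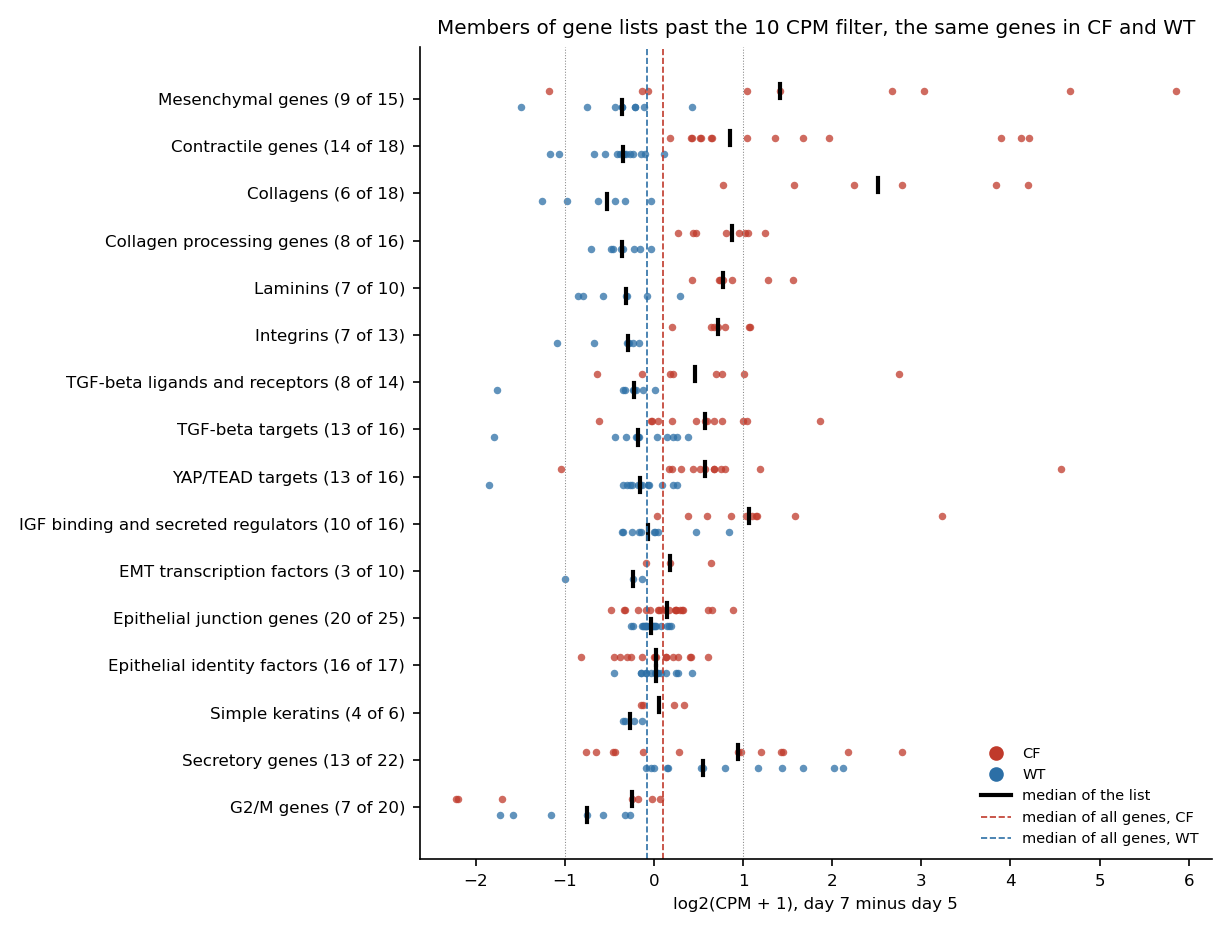
Log2 difference, day 7 minus day 5, of each read member (dots) of 16 gene lists in CF and in WT, with a black tick at each list's median and a dashed line at the median of all genes (0.10 in CF, -0.08 in WT). In CF the mesenchymal list has a median of 1.41 and the contractile list of 0.85, and in WT the same genes have -0.36 and -0.35.

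Of 22 secretory genes, 13 were read, of which 5 rose (1.95% of all genes did) and 8 lay above 0. Of the 13, 2 passed through day 7 alone, and over the 18 with a count the median was 0.28. The trefoil peptides, small mucosal repair factors, rose from 6.76 to 52.3 CPM for TFF1, from 27.9 to 130.1 CPM for TFF2 and from 23.8 to 66.3 CPM for TFF3. WFDC2, a secreted protease inhibitor, rose from 34.8 to 95.3 CPM and AGR2, an endoplasmic reticulum protein needed for mucin folding, from 39.1 to 91.3 CPM. None of the 6 mucins that were read passed 2-fold, with log2 differences of -0.47 for MUC1, -0.76 for MUC4, -0.65 for MUC5AC, -0.44 for MUC5B, -0.13 for MUC16 and 0.28 for MUC13. Unlike the matrix genes, the secretory list had a positive median in both genotypes, 0.95 in CF and 0.55 over the same genes in WT between the same days; the difference between them was not tested.

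The 4 ranked genes that fell were LOC101680039 (587 to 240.3 CPM), LOC101672378 (71.0 to 30.7 CPM), both without a symbol, DEPP1, a FOXO-induced regulator of autophagy (584 to 265 CPM), and PLAU. DEPP1 stood at 0.453 times the day 5 level (95% interval 0.443 to 0.463). PLAU was within 2-fold with doublets kept or a pseudocount of 5 CPM, and LOC101680039 with each cell weighted alike. The other 18 lay between 10 and 50 CPM. Of these, CENPF, a kinetochore protein (17.5 to 2.97 CPM), TOP2A, the topoisomerase of chromosome condensation (14 to 2.27 CPM), PCLAF, a PCNA-binding replication factor (10.7 to 2.30 CPM), UBE2C, an enzyme of anaphase (14.7 to 3.83 CPM), and RRM2, a ribonucleotide reductase subunit (20.1 to 6.79 CPM), are genes of dividing cells. With the classes at equal shares TOP2A, UBE2C and RRM2 were within 2-fold, as was RRM2 with each cell weighted alike. The setting of equal shares used only classes with at least 50 cells on both days. It left out the authors' proliferating acinar class, cluster 24, with 40 cells at day 5 and 4 at day 7. Balancing the classes and leaving this class out cannot be told apart here. Few proliferation genes were high enough to be read: 5 of 20 S phase genes, of which 1 fell, and 7 of 20 G2/M genes, of which 3 fell (0.277% of all genes did), with medians of -0.12 and -0.25. Over the 19 and 20 with a count the medians were -0.72 and -0.88. Others that fell, named after their values were seen, were the antiprotease PI3 (28.8 to 5.99 CPM), the hydrogen peroxide generating oxidase DUOX2 (15.2 to 5.82 CPM) with its maturation factor DUOXA2 (17.9 to 7.83 CPM), the alarmin S100A9 (36.8 to 15 CPM) and the interferon-induced ISG15 (26.1 to 8.64 CPM). ISG15 was the 1 of 8 read interferon genes that fell, and was within 2-fold with thinned cells, and the median of those was -0.01.

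No member rose or fell among WNT targets (5 read of 15), BMP targets (8 of 10), Notch genes (6 of 12), progenitor factors (6 of 14), duct transport genes (9 of 18), squamous envelope genes (3 of 11), endoplasmic reticulum genes (16 of 18), glycolysis and hypoxia genes (15 of 18) or immediate early and heat shock genes (14 of 16). Over all read genes 1.95% rose and 0.277% fell, so a count of 0 in lists of this size is near those shares. The list medians lay between -0.21 and 0.44. The BMP-responsive ID1, an inhibitor of basic helix-loop-helix factors, read 1172 and 771 CPM, and JAG1, a Notch ligand, 88.3 and 156 CPM. PDX1, the pancreatic progenitor factor, stayed below the limit of 10 CPM with 336 and 175 UMIs (4.70 and 5.04 CPM).

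Markers of other cell types were counted beside these changes. The 11 fibroblast markers in the matrix summed to 225 UMIs at day 5 (3.15 CPM) and 1210 at day 7 (34.8 CPM), of which COL1A1 gave 658. DCN and LUM, the proteoglycans that define most fibroblasts, had 0 UMIs at day 5 and 1 each at day 7, TCF21 had none, and DPT had 1 UMI on each day. COL1A2 had 2 and 232 UMIs, COL3A1 1 and 75, THY1 0 and 90 and PDGFRB 1 and 8. PDGFRA read 1.40 and 2.13 CPM and PRRX1 1.60 and 2.02 CPM. In the other 6 libraries the same list summed to between 3.19 and 24.1 CPM. Day 5 was not the first CF day, and the CF day 2 library held more of several of these markers. There DCN had 54 UMIs, LUM 16, COL1A2 124, COL3A1 116, THY1 48 and PDGFRB 21. COL1A1 had 459, found in 13 of 4499 cells. PDGFRA and PRRX1 were lower at day 2 than at day 5, at 0.547 and 1.32 CPM. The 7 stellate and smooth muscle markers summed to 5.44 and 34.0 CPM, of which ACTA2 gave 831 of 1182 UMIs at day 7, RGS5 had 2 and 62 UMIs, MCAM 3 and 67, MYH11 3 and 1, and DES had none. Endothelial markers gave 57 and 54 UMIs, immune markers 750 and 247 with PTPRC, CSF1R, CD79A and LAPTM5 at 0, acinar markers 16 and 6, and the islet hormones INS, GCG, SST and PPY none. Neural crest and mesothelial markers gave 48.7 and 43.9 CPM, nearly all from UPK3B, and endocrine markers 26.4 and 27.7 CPM, nearly all from ISL1. The 12 ductal markers summed to 9844 and 11210 CPM, of which SPP1, also a member of the mesenchymal list, gave 41.7 and 1082 CPM. The part of any other cell type in the changes was not tested beyond these counts.

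The rise was carried by a minority of day 7 cells for some genes and by many for others. To put both days on 1 depth, each cell with at least 3000 UMIs was thinned to 3000, which kept 2705 of 2750 and 1196 of 1607 cells. FN1 was then found in 0.924% (0.599 to 1.36%) of day 5 cells and 22.9% (20.6 to 25.4%) of day 7 cells, and without thinning in 3.53% and 31.2%. TAGLN went from 3.62% (2.95 to 4.40%) to 21.3% (19.0 to 23.8%) and VIM from 9.57% (8.49 to 10.7%) to 33.4% (30.8 to 36.2%). SPARC was found in more cells than these, at 15.3% (13.9 to 16.7%) and 51.1% (48.2 to 54.0%). Shares for the epithelial genes differed less, with KRT8 in 84.3% (82.8 to 85.6%) and 83.9% (81.7 to 86.0%) and CDH1 in 67.3% (65.5 to 69.1%) and 71.7% (69.1 to 74.3%). DEPP1 went from 59.1% (57.3 to 61.0%) to 31.3% (28.7 to 34.0%) of cells and PLAU from 22.7% (21.1 to 24.3%) to 11.9% (10.1 to 13.8%). The 120 day 7 cells with the most UMIs of a gene, 10% of those thinned, held 79.5% of the FN1 UMIs, 92.5% of ANKRD1, 83.5% of TAGLN and 78.0% of SPP1, against 45.0% for SPARC, 30.1% for KRT8 and 32.3% for CDH1. Free RNA in droplets puts UMIs into cells that do not express a gene. Among the 7 of the authors' clusters with at least 40 cells on both days, cluster 18 had the least FN1 at day 7, and there the gene stood at 3.19 CPM, so low shares of cells can be background.

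Day 7 cells were then ordered by their own FN1 count out of 3000 UMIs, as a description of what varied with it. Of 1196 cells, 922 had 0 FN1 UMIs, 63 had 1, 83 had 2 to 4 and 128 had 5 or more. Along these 4 bins TAGLN read 98.7, 497, 1285 and 2734 CPM, SPP1 252, 1587, 3469.9 and 5432 CPM and SPARC 414, 1280.4, 1959.8 and 2914 CPM. VIM, the filament of mesenchymal cells, read 124, 392, 518 and 805 CPM. COL1A1 stood apart, since it was near 0 in the first 3 bins and high in the last, at 1.08, 5.29, 8.03 and 130.2 CPM. ACTA2 had 0.362 CPM (0.00915 to 2.01) in the cells without FN1 and 119.8 CPM (87.7 to 159.8) in those with 5 or more. Keratins and adhesion genes were kept in the FN1-rich cells. KRT8 read 887, 646, 675 and 779 CPM, KRT18 264, 386, 402 and 471 CPM, EPCAM 175, 222, 149 and 151 CPM and CDH1 515, 455, 357 and 427 CPM. The claudins and ELF3 were lower there, with CLDN7 at 135, 111, 76.3 and 33.9 CPM, CLDN4 at 269 in the first bin and 130.2 CPM in the last, and ELF3 at 381, 190.5, 133 and 62.5 CPM. SNAI2 read 53.1 CPM in the first bin and 115 CPM in the last. DCN, LUM and PDGFRB had no UMI in any of the 4 bins, but the whole day 7 library held only 1, 1 and 8. Thinned cells could hardly show them, so this does not tell whether FN1-rich cells hold such markers. COL3A1, THY1 and RGS5, with 75, 90 and 62 UMIs in that library, are not reported by bin here. The trefoil peptide TFF1 went against FN1, at 51.7 CPM in the cells without FN1 and 2.60 CPM in those with 5 or more. Before thinning, the median depth was 27929 UMIs in the cells with 5 or more and 27500 in those with 0, and mitochondrial shares were 5.08% and 6.86%.

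**Figure D4:**
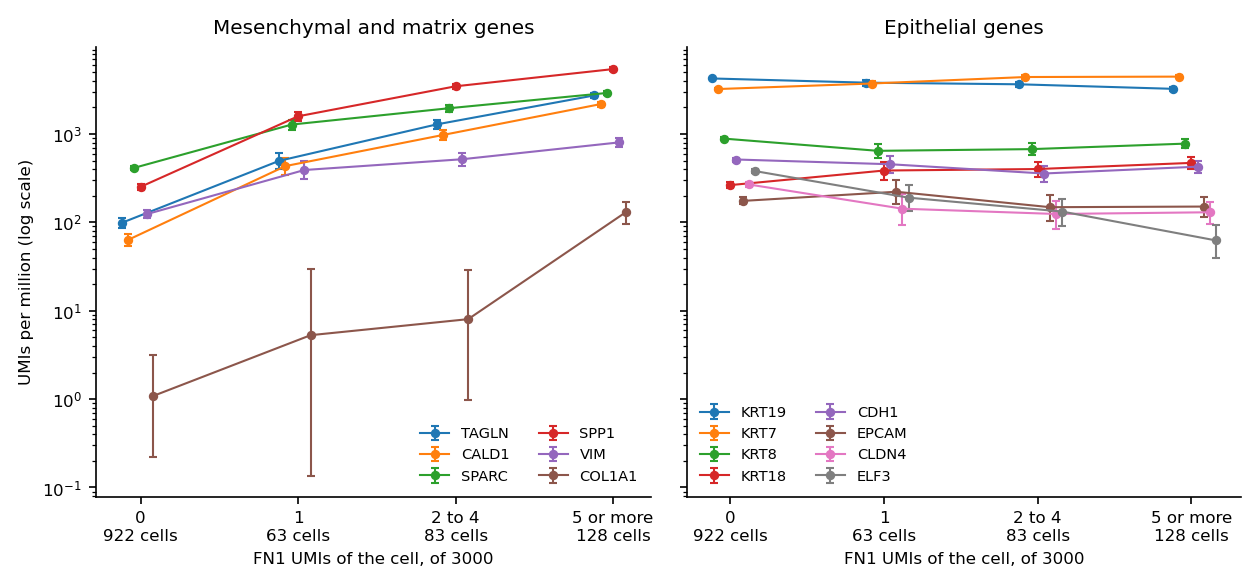
Level of matrix and contractile genes (left) and of epithelial genes (right) in CPM on a log scale, for CF day 7 cells grouped by their FN1 UMIs after thinning to 3000 UMIs (0, 1, 2 to 4, 5 or more; 922, 63, 83 and 128 cells), with bars for 95% counting intervals. TAGLN goes from 98.7 to 2734 CPM across the bins and KRT8 from 887 to 779 CPM.

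Of the 128 cells with 5 or more FN1 UMIs, 91 belonged to the authors' cluster 11, 18 to cluster 3, 11 to cluster 27 and 8 to cluster 23. Cluster 11 held 2 day 5 cells and 128 day 7 cells, the latter 7.97% of the library. At day 7 it held 74.8% of the FN1 UMIs, 75.3% of TAGLN, 92.9% of COL1A1 and 46.0% of SPARC. Against this stood 10.9% of KRT8 and 11.4% of all UMIs. Cluster 3 held 17 day 5 cells and 135 day 7 cells, with 15.9% of the FN1 and 27.1% of the SPP1 UMIs of day 7. Without cluster 11 on either day, 84 genes rose, 80 of them among the 155. FN1 then had a log2 difference of 4.12, SPP1 3.52, TAGLN 2.41, SPARC 2.33 and VIM 1.93. ACTA2, at 0.20 against 4.21 with those cells, did not rise without them. AGR2, CTHRC1, DEPP1, F3, FHL2, FLNA, FSTL3, INHBA, LTBP4, PALLD, PDPN, SERPINH1, SFRP1 and TPM1 were also within 2-fold without these cells. For DEPP1 and LTBP4 the shift was small, from a log2 difference of -1.14 to -0.99 and from 1.01 to 0.96. Cluster 11 held 1.32% of the day 7 UMIs of DEPP1. INHBA went from 2.75 to 0.78. The rest of these genes lay between 0.35 (AGR2) and 0.91 (CTHRC1) without cluster 11. F3 and FHL2 were also within 2-fold with each cell weighted alike. Leaving cluster 11 out was decided once the values were known.

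Within clusters the same direction was found for several genes outside cluster 11. Clusters 0, 5, 12, 14, 16, 17 and 18 had at least 40 cells on both days. The clusters were built by the authors on these same cells, so the values are a description. SPP1 was higher at day 7 in 7 of 7 of them by 1.27- to 28.8-fold, the largest in cluster 17 (0.634 to 18.3 CPM), and SPARC in 7 of 7 by 1.64- to 6.91-fold. In cluster 16, for example, SPARC went from 456 to 750.2 CPM. FN1 was higher in 7 of 7, but its level reached at most 39.0 CPM at day 7, far below the 404 CPM of the library. Other ranked genes were less uniform. The counting interval lay above 1 in 3 of 7 clusters for TAGLN and MYL9, and in 4 of 7 for ANKRD1 and CALD1. In cluster 5, which held 1520 of the 1990 day 5 UMIs of TAGLN, its fold was 1.01 (0.894 to 1.13). VIM was higher in 6 of 7, with a fold of 0.809 (0.499 to 1.31) in cluster 18. Free RNA from the FN1-rich cells would add to each of these values, and its part was not tested. DEPP1 was lower in 7 of 7, at 0.342 to 0.728 times its day 5 level, and PLAU in 7 of 7, at 0.403 to 0.657 times. For CDH1 the fold lay between 1.02 and 1.26, and for EPCAM between 1.07 and 1.39. Secretory genes did not move alike across clusters. TFF1 went from 4.40 to 114 CPM and TFF2 from 88.7 to 493 CPM in cluster 18, and WFDC2 from 61.8 to 463 CPM in cluster 12 but from 43.8 to 12.2 CPM in cluster 17. TFF3 had a fold above 1 in 2 of 7 clusters, and 51.5% of the day 7 UMIs of AGR2 lay in cluster 11.

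**Figure D5:**
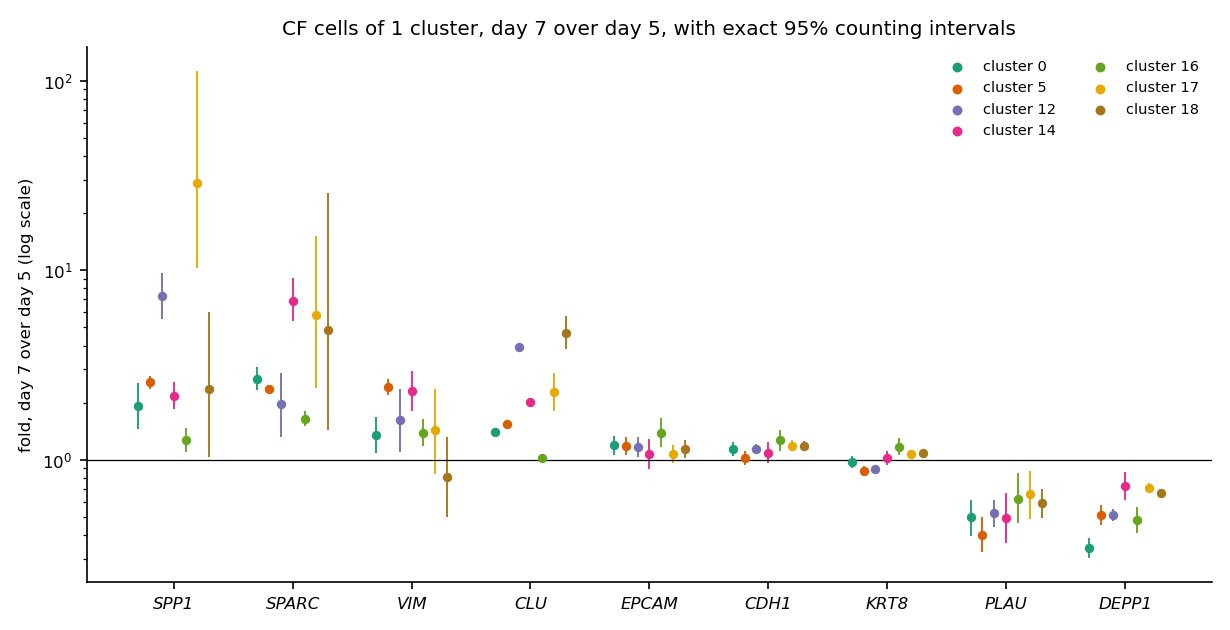
Fold of day 7 over day 5 (log axis) for 9 genes within each of 7 of the authors' CF clusters that held at least 40 cells on both days, with 95% intervals of counting error. SPP1 and SPARC lie above 1 and DEPP1 and PLAU below 1 in 7 of 7 clusters, whereas KRT8 lies between 0.871 and 1.17.

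By the authors' class names, the step was read in each class without 2 kinds of cluster, those with more markers of another of the authors' classes than of their own and those of very low depth with no marker of their class among their 10 leading genes. The second kind (clusters 13, 21, 23 and 27) made up all the centroacinar and progenitor cells of day 7 that were left out, the first kind (cluster 19) the 88 of 176 ductal ones. In clusters called centroacinar (1576 and 729 cells), 199 of 8045 genes rose (2.47%) and 99 fell (1.23%). These include cluster 11. Its 10 leading genes held ACTA2, COL1A1 and COL1A2, which the lists above place with smooth muscle and fibroblasts, beside TAGLN, FN1 and CALD1. No centroacinar marker was among them, but the same was true of every other centroacinar cluster used here except cluster 15. The ductal clusters 12 and 26 likewise had no ductal marker among theirs. Cluster 11 was kept because only markers of the other pancreatic classes were counted against a cluster. It held 74.8% of all day 7 FN1 UMIs, so these counts are those of cells under the authors' name and not of centroacinar cells as such. Different clusters held most of these cells, 0, 5 and 15 at day 5 and 16, 3 and 11 at day 7, so a change of mix and a change within cells cannot be told apart here. In clusters called centroacinar progenitor (521 and 195 cells, mostly clusters 17, 25 and 18 on both days), 26 of 7601 genes rose (0.342%) and 32 fell (0.421%), and FN1 read 2.16 and 11.1 CPM. In clusters called ductal (495 and 88 cells, led by clusters 12 and 26 on both days), 43 of 7688 rose (0.559%) and 31 fell (0.403%), and FN1 read 0.875 and 7.42 CPM. Over every cluster called ductal, 106 of 7759 rose (1.37%) and 88 fell (1.13%).

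The change did not rest on the shallow day 7 cells. Their 498820 UMIs gave FN1 at 267 CPM against 406 CPM in the deeper cells, TAGLN at 154 against 505 CPM and SPARC at 896 against 786 CPM. Of the 10 genes highest in them relative to the deeper cells, 9 were ribosomal RNA genes. In the deeper cells alone the log2 difference was 5.86 for FN1, 4.67 for SPP1 and 2.67 for VIM.

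WT epithelium was read over the same interval to see where the CF step differed. Of 7900 WT genes, 17 rose between day 5 and day 7 (0.215%) and 53 fell (0.671%), and the median over all genes was -0.08. Over days 2, 5, 7 and 9, FN1 in WT read 0.113, 263, 93.1 and 155 CPM, TAGLN 0.140, 242, 107 and 268 CPM and CALD1 2.24, 560.1, 267 and 316 CPM. These genes were thus higher in WT than in CF at day 5 and lower at day 7. SPP1 in WT read 2.41, 142, 83.5 and 169.8 CPM, SPARC 1.54, 159, 124 and 166 CPM and VIM 13.9, 42.3, 39.0 and 52.9 CPM. WT had its own increase earlier, with 396 of 8076 genes that rose from day 2 to day 5 (4.9%). Of the 155 genes that rose in CF between day 5 and day 7, 99 (63.9%) were at least 2-fold higher in WT at day 5 than at day 2, against 413 (5.19%) of the 7951 genes, and they made up 24.0% of those 413. Across the 7951 genes the CF step and the WT step from day 2 to day 5, which share no library, had Pearson's r = 0.529 and Spearman's rho = 0.428. With the WT step from day 5 to day 7 they were -0.0977 and -0.0700, and with that from day 7 to day 9 they were 0.329 and 0.277. In the last, 32 of the 155 (20.6%) were at least 2-fold higher, against 1.22% of all genes. Genes are not independent replicates, so no p is given. Of the 155, 12 (7.74%) were at least 2-fold lower in WT over the same days, against 23 (0.289%) of the 7951 genes read in CF. In the other direction 3 (1.94%) were at least 2-fold higher, against 15 (0.189%) of the 7951. The 12 made up 52.2% of the 23 and the 3 made up 20% of the 15, so both directions stood above their share over all genes.

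Other genes were ranked by how closely they followed the mean course of FN1, TAGLN and SPP1, by Pearson's r of log2(CPM + 1) over the 4 CF libraries. Among 3319 genes the 5 nearest were FAM20C, a secretory pathway kinase (6.18, 13, 48.9 and 52.7 CPM), TLN1 (talin), which links integrins to actin (65.8, 77.0, 105 and 108 CPM), AFDN (afadin), an adaptor of adherens junctions (51.9, 60.7, 80.4 and 82.8 CPM), PON2, a lactonase (57.2, 71.5, 112 and 117 CPM), and PLOD2 (35.4, 54.0, 111 and 119 CPM). With 4 points such a likeness is a description.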

How the data were processed

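Cells were called and counted by the authors. Per the labels and the study's methods, Cell Ranger 5.0.1 aligned reads to assembly ASM1176430v1.1, whose annotation had been extended. In Seurat, cells were required to show 200 genes or more and no more than 20% of reads from mitochondria, then freed of doublets with DoubletFinder and merged without batch correction. The deposited values are raw UMI counts per gene and barcode, and the deposited cell table gives the library, cluster, class, counts and percent of mitochondrial reads of each retained cell. Clusters were made within each genotype by the authors. No doublet caller was run again.

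Here, UMIs of retained cells were summed per library over 27912 genes and scaled to CPM. Exact Poisson intervals (for a sum), exact conditional binomial intervals (for a ratio) and exact Clopper-Pearson intervals (for a share of cells) were computed at 95%. Cells were thinned to 3000 UMIs with random seed 7. Python 3.11.15, numpy 2.4.6, scipy 1.17.1 and pandas 2.3.3 were used, with R 4.3.3, edgeR 4.0.16 and DESeq2 1.42.0 only for scaling factors over the 8 libraries, as alternatives. The script was checked on simulated data. The members and gene lists were chosen with earlier results of these data known. Genes were named by rule: up to 15 in each direction with at least 50 CPM in 1 of both libraries and at least 2-fold apart in all cells and in cells of 3000 UMIs or more (15 rose and 4 fell), members of the gene lists, CFTR and PDX1, the genes highest in shallow cells, and the 5 most like FN1, TAGLN and SPP1 over the CF days. CLU and the genes that fell at 10 to 50 CPM were named after their values were seen. Some list members are counted in their lists but not reported here by name.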

Additional observations from a re-analysis of the deposited data

Results flagged for a closer look

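Some values moved one way in CF between day 5 and day 7 and the other way in WT over the same days. With 1 library in each of the 4 groups the difference was not tested. On the log2 scale, CF minus WT, it was 7.35 for FN1 (5.86 in CF and -1.49 in WT), 6.41 for ANKRD1, 5.42 for SPP1, 5.29 for TAGLN and 4.96 for CALD1. For these 5 genes the WT change ranged from -1.85 (ANKRD1) to -0.75 (SPP1). It was 4.23 for LOC123389978, 4.02 for SRGN, 3.76 for PAPPA and 3.39 for SPARC. For VIM it was 2.78, with a WT change of only -0.11, and for MYL9 2.38. Among the genes that fell in CF it was -1.77 for LOC101672378, -1.51 for DEPP1 and -1.30 for LOC101680039, whose WT change was 0.01. For the medians over the list members read in CF, the difference was 3.04 for collagens, 1.78 for mesenchymal genes, 1.19 for contractile genes and 0.18 for epithelial junction genes. Of the 6 collagens read, 4 passed the 10 CPM limit only through CF day 7, as did 1 mesenchymal and 1 contractile gene, so these differences favour CF by the choice of members. The medians over all genes themselves differed by genotype, at 0.10 in CF and -0.08 in WT, which is as large as the junction difference.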

How the results depend on the processing

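The 6 main values were followed through the alternatives: the 155 genes that rose, the 22 that fell, and the list medians of mesenchymal genes (1.41), contractile genes (0.85), collagens (2.51, or 1.17 over the 2 of 6 chains with at least 10 CPM at day 5) and epithelial junction genes (0.14). With cells thinned to 3000 UMIs, 34 genes fell and the mesenchymal median was 1.03. With each cell weighted alike, which lets the shallow day 7 cells count fully, the mesenchymal median was 1.21 and the junction median 0.27. With the deposited classes at equal shares on both days, the mesenchymal median was 1.29 and the contractile 0.77. This setting left out the proliferating acinar class, which had under 50 cells on both days. With TMM factors 35 genes fell, the mesenchymal median was 1.25, the contractile 0.69 and the junction median changed sign to -0.017. With DESeq2's size factors these medians were 1.28, 0.71 and 0.00731. With a pseudocount of 5 CPM, 13 genes fell and the collagen median was 1.99. With no filter on low values, 288 genes rose and 65 fell, and the medians were 1.87 (mesenchymal), 0.65 (contractile) and 1.57 (collagens), over more genes by construction. Without the cells of cluster 11, chosen after seeing the data, 84 genes rose and the medians were 1.18, 0.51 and 1.36. Apart from the junction median, no direction turned in any alternative that was run, and of 60 named genes that rose or fell, the number still past 2-fold ranged from 39 (without cluster 11) to 60, with none turned. No paired analysis was possible because each genotype and day is 1 library. No library could be left out for the same reason. Depth limited genes below 10 CPM.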

Other observations

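Further genes among the 155 that rose were picked after their values were seen. They are given as single genes, with no count of the groups they belong to. Guidance and adhesion molecules among them were the semaphorin SEMA3E (33.0 to 88.6 CPM), the semaphorin and growth factor co-receptor NRP2 (9.04 to 25.6 CPM), the ephrin receptor EPHB2 (3.19 to 16.8 CPM), the cell adhesion molecule CADM1 (9.25 to 32.4 CPM) and CDH6, a cadherin of developing kidney and mesenchyme (66.6 to 239 CPM). Proteoglycans and their enzymes among them were the large chondroitin sulfate proteoglycan VCAN (2.32 to 18.1 CPM), the cell surface heparan sulfate carriers SDC2 (2.04 to 11.1 CPM) and GPC1 (58.2 to 136 CPM), and the aggrecanase ADAMTS5 (12.6 to 51.9 CPM). Growth factors among them were PDGFB, a mitogen for mesenchymal cells (13.2 to 42.3 CPM), midkine, MDK (31.5 to 96.4 CPM), the ligand WNT5B (19.8 to 54.6 CPM) and PTHLH, a parathyroid hormone-like peptide (83.7 to 188 CPM). NRP2, EPHB2, CADM1, VCAN and SDC2 passed the 10 CPM limit through day 7 alone. In WT over the same days the log2 difference was -1.40 for EPHB2, -0.98 for NRP2 and 0.07 for PDGFB. The part of cluster 11 in these values was not tested.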
